A study of Mus musculus with 6 samples.

Results

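The NF-kB genes described here are 10 genes that encode the 5 NF-kB subunits (Nfkb1, Nfkb2, Rel, Rela and Relb) and 5 inhibitors or regulators of the pathway (Nfkbia, Nfkbib, Nfkbid, Nfkbiz and Tnfaip3). They were taken by gene symbol from the 47643 genes annotated in the RNA-seq tables, and all 10 were among the 13235 genes with enough counts to be tested. RNA came from regulatory T cells, sorted from mouse bone marrow as CD4+ cells that carry a FOXP3-GFP reporter. The myeloma group held 3 libraries from the marrow of mice injected with Vk*MYC cells (replicates 3, 4 and 5), and the control group held 3 libraries from the marrow of control mice (replicates 1, 3 and 5). Vk*MYC cells come from a transgenic mouse in which immunoglobulin kappa regulatory elements drive MYC and which develops a plasma cell cancer like multiple myeloma. The reporter was shared by both groups, and the labels give no age, cell dose, sampling day or batch, nor what the control mice received. Total expected counts ran from 10240620 to 13314631 per library, and the 10 genes had between 467 and 40320 counts each per library. Foxp3, Il2ra, Ctla4, Ikzf2, Cd3e, Cd3d, Cd4 and Trac, the defining genes of the sorted cells, had summed levels of 5271 to 5526 CPM in myeloma libraries and of 4670.2 to 6229 CPM in controls, where CPM are counts scaled to the library's total after TMM adjustment. None of these 8 genes passed the test described next.

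NF-kB is a family of transcription factors that act as dimers of its subunits. In resting cells most dimers are held in the cytoplasm by IkB proteins, and signals from antigen and cytokine receptors activate a kinase complex that marks IkB for destruction. In a second, slower branch, receptors of the tumour necrosis factor family stabilise the kinase NIK, which leads to the processing of the Nfkb2 product and frees dimers that contain RelB. In regulatory T cells Rel (c-Rel) is known for its part in switching on Foxp3 during development, and Rel and Rela for maintaining the mature cells. Several IkB genes and Tnfaip3 are themselves NF-kB targets and so form feedback loops.

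Relb and Nfkb2, the subunit genes of the slower branch, rose 1.56-fold and 1.30-fold in regulatory T cells of the myeloma group, while Tnfaip3 and Nfkbiz fell to 519 ± 111 and 156 ± 9.66 CPM (SD, n = 3) against 2399.6 ± 1271 and 271 ± 95.8 CPM in controls (n = 3). The other 6 genes did not pass the test. Thus 2 of 10 genes were called higher and 2 lower by edgeR's quasi-likelihood test at a Benjamini-Hochberg adjusted p under 0.05, where 6.33% of all tested genes were called higher and 4.69% lower. The 3 myeloma values lay wholly above the 3 control values for 4 of the 10 genes, wholly below for 3 and overlapped for 3. Over all tested genes 17.3% lay wholly above, 16.0% wholly below, and 33.3% thus showed no overlap. The median log2 fold change (myeloma minus control) was 0.042 for the 5 subunit genes and -0.052 for the 5 inhibitor genes, and it was 0.018 over all tested genes. Leaving out a library changed these counts: 1 gene, Relb, was called higher once myeloma library 3 or 4 or control library 3 was dropped. The number called lower was 1 once myeloma library 3 or 5 or control library 1 or 3 was dropped, and 0 once myeloma library 4 was, where both log2 fold changes stayed negative.

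**Figure D1:**
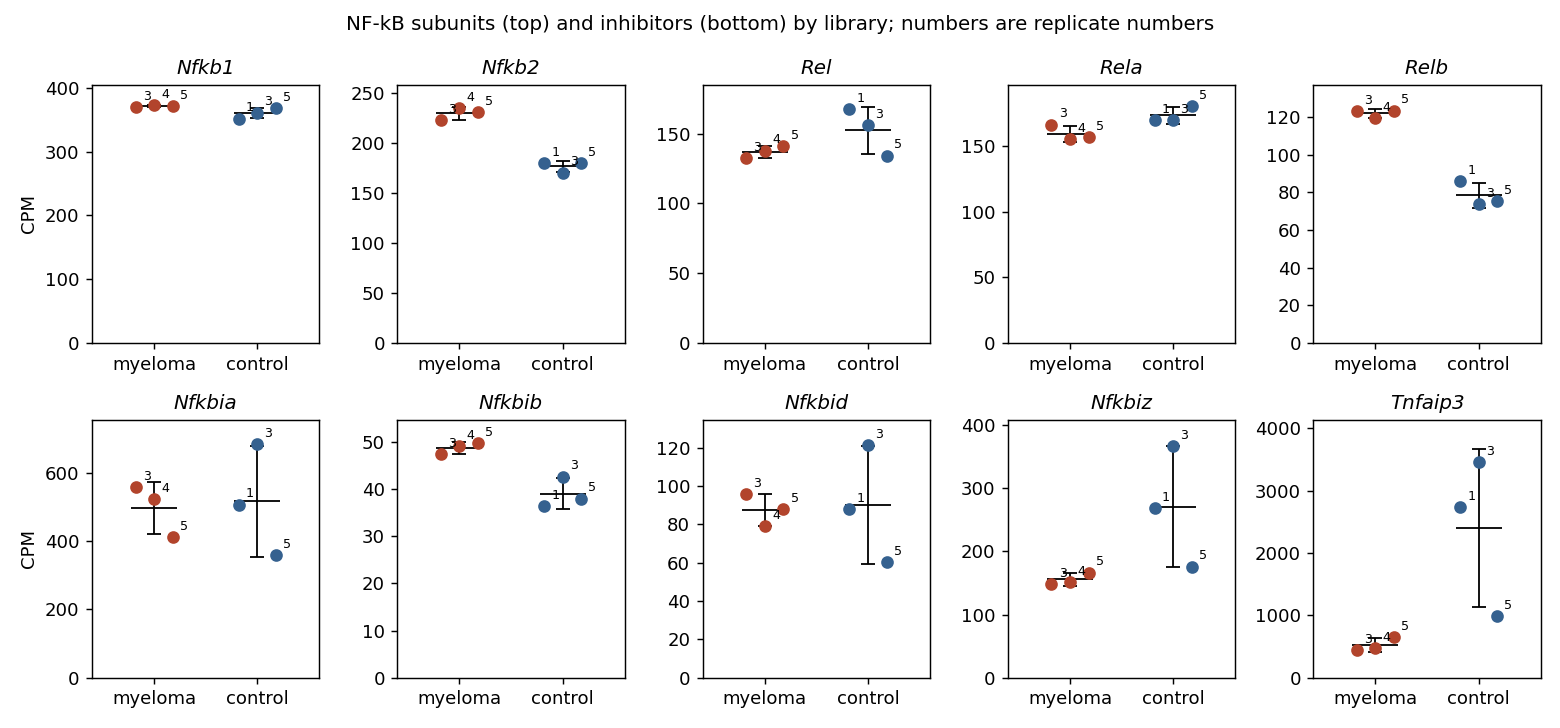
CPM of the 5 NF-kB subunit genes (top row) and the 5 inhibitor genes (bottom row), myeloma on the left and control on the right of each panel, with 1 point per library labelled by its replicate number and the mean ± SD of 3 libraries as a bar. Relb and Nfkb2 lie higher in all 3 myeloma libraries, Tnfaip3 and Nfkbiz lower, and control libraries spread widely for Tnfaip3, Nfkbiz, Nfkbia and Nfkbid.

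Start-site sequences were searched for the motif that NF-kB dimers bind, since several of these genes are known targets of the family. RefSeq windows from 250 bases before to 50 bases after a transcription start (build GRCm38.p6) were at hand for 7 of the 10 genes, in 12 windows. The NF-kB consensus, searched on both strands, was present in 7 of these 12 windows and in windows of 5 of the 7 genes, namely Nfkb2, Rel, Nfkbia, Nfkbid and Tnfaip3. Of all 32851 windows 8.46% hold a match. Some genes have more than 1 window, and a pair of overlapping Nfkb2 windows shares 1 matching site, so the 12 windows are not independent. The windows of Rela and Nfkbib had no such letters. Windows of Nfkb2, Nfkbia and Tnfaip3 are printed 5′ to 3′ with each match in capitals, because each holds at least 1 match although Nfkb2 was called higher, Nfkbia was not called and Tnfaip3 was called lower. They are chr19:46304487-46304786 on the plus strand, chr12:55492598-55492897 on the minus strand and chr10:19015361-19015660 on the minus strand.
Nfkb2: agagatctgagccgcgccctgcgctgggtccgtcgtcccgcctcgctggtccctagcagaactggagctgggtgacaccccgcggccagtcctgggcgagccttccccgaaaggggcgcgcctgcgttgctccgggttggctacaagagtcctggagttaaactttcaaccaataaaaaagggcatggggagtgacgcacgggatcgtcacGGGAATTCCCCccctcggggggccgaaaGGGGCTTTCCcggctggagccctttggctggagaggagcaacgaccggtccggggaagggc
Nfkbia: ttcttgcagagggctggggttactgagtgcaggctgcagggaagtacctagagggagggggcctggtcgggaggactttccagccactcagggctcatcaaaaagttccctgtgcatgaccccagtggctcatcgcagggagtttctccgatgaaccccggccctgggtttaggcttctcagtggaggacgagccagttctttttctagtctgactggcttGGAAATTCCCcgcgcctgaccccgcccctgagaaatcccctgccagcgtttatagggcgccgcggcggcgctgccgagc
Tnfaip3: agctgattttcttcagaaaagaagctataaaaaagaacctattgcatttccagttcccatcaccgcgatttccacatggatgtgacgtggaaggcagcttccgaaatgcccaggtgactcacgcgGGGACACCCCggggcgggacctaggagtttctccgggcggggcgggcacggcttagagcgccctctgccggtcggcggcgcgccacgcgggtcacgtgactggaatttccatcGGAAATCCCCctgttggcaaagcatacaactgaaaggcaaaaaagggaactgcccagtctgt
The Nfkb2 window holds 3 matches, of which a pair overlap in the left run of capitals, the Nfkbia window 1 and the Tnfaip3 window 2. The AP-1 site TGANTCA, searched on both strands like the core named next, was found in 2 of the 12 windows, in the Tnfaip3 window above and in another Nfkb2 window, and in 7.81% of all windows. The interferon regulatory factor core, GAAA then NN then GAAA, was found in none of the 12 and in 3.44% of all windows. A match in these letters is not a measured binding site.

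Among the subunit genes Relb had the smallest adjusted p. Its product RelB pairs mainly with the processed form of the Nfkb2 product. Relb (ENSMUSG00000002983.17, 7:19606217-19629438 in mm10) was at 123.1, 119 and 123.4 CPM in myeloma replicates 3, 4 and 5, against 85.8, 73.6 and 75.5 CPM in control replicates 1, 3 and 5. The myeloma values were close together and all lay above the highest control, replicate 1. The log2 fold change was 0.64 (SE 0.09, adjusted p = 0.00342). Relb stayed called whichever of the 6 libraries was dropped, the highest adjusted p being 0.0255. It missed the threshold when limma was run on log2(TPM + 1), where TPM is a level scaled to transcript length and library total (log2 fold change 0.41, adjusted p = 0.0612). On that scale the median over all genes was -0.20, and relative to it Relb was at 0.62.

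Nfkb2 (ENSMUSG00000025225.14, 19:46304320-46312385), which encodes the precursor that is processed to the partner of RelB and whose start-site window is printed above, was at 223, 235 and 231 CPM in myeloma libraries and at 180.2, 171 and 180.1 CPM in control libraries. No myeloma value overlapped the controls. The log2 fold change was 0.38 (SE 0.07, adjusted p = 0.0164). The call was lost when myeloma library 3 (0.0539) or 4 (0.0649) or control library 3 (0.0852) was dropped, and with limma on log2(TPM + 1) the value was 0.12 (adjusted p = 0.468), or 0.33 relative to the median of all genes. With the replicate number as a block in edgeR's test Nfkb2 was not called either (adjusted p = 0.116). Myeloma library 4 and control library 1 share their numbers with no library of the other group, so they do not inform the difference in that fit. The labels do not say that libraries of the same number belong together. Exons of Nfkb2 overlap those of Psd on the opposite strand by 299 bases and those of a further opposite-strand gene, with no level matched here, by 501 bases, and the labels name no strand-specific protocol. Psd itself was at 7.80 to 11.9 CPM over the 6 libraries.

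The 3 subunit genes of the rapid branch did not pass the test. Nfkb1 (3:135584655-135691547), which encodes the precursor of the subunit that most often partners RelA, was at 369.8, 374 and 371 CPM in myeloma libraries and at 352, 361.5 and 369 CPM in controls. The values did not overlap but the gap was far smaller than for Relb (log2 fold change 0.042, SE 0.074, adjusted p = 0.759). Rela (19:5637483-5648130), the main activating subunit, was at 167, 155 and 157 CPM in myeloma libraries, each below the controls at 170.2, 169.7 and 181 CPM. Its log2 fold change was -0.12 (SE 0.08, adjusted p = 0.341). Rel (11:23736847-23770970), which encodes c-Rel, was at 132, 138 and 141 CPM in myeloma libraries and at 167.5, 156 and 134 CPM in controls, so the groups overlapped at control replicate 5 (log2 fold change -0.15, SE 0.10, adjusted p = 0.334).

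Levels can be compared between genes only per length, and TPM gives this. The summed TPM of the 5 subunit genes was 509, 493 and 456 in myeloma libraries and 521, 464 and 537.5 in controls, and these ranges overlapped. Their summed CPM did not overlap, at 1015, 1021 and 1023 in myeloma libraries and 956, 931 and 940 in controls. The median log2 fold change of all genes was -0.20 on the log2(TPM + 1) scale, so TPM sums do not settle whether the total differed. Within the TPM sum Nfkb2 and Relb made up 37.0 ± 0.597% in myeloma and 29.9 ± 1.11% in controls (SD, n = 3 each), and no library overlapped. The ratio of Relb to Rela TPM was 0.905, 0.943 and 0.991 in myeloma replicates 3, 4 and 5, against 0.605, 0.524 and 0.515 in control replicates 1, 3 and 5. The ratio of Nfkb2 to Nfkb1 TPM was 0.501, 0.513 and 0.523 in myeloma libraries and 0.453, 0.415 and 0.428 in controls. These ratios were chosen after the values had been seen. For the share and for both ratios a two-sided exact permutation test gave p = 0.1, the smallest that 3 against 3 libraries allow.

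**Figure D2:**
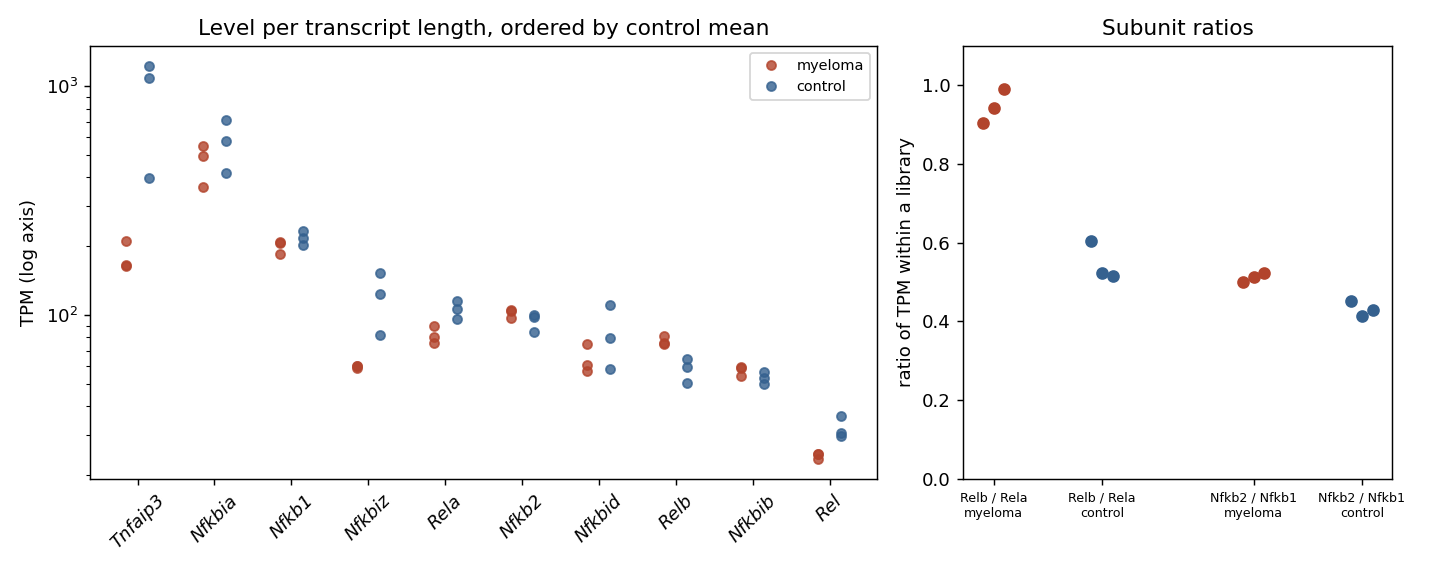
Left, TPM on a log axis for the 10 NF-kB genes ordered by their control mean, with 1 point per library, myeloma to the left of control. Right, the within-library ratio of Relb to Rela and of Nfkb2 to Nfkb1 TPM, where every myeloma library lies above every control library.

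By mean TPM, the order in myeloma libraries was Nfkbia (470 ± 95.1), Nfkb1 (200.1 ± 12.8), Tnfaip3 (179.6 ± 26.2), Nfkb2 (102 ± 4.79), Rela (81.9 ± 7.21), Relb (77.3 ± 3.39), Nfkbid (64.0 ± 9.15), Nfkbiz (59.5 ± 0.645), Nfkbib (57.55 ± 2.69) and Rel (24.3 ± 0.739) (SD, n = 3 each). Nfkb1 and Tnfaip3, Rela and Relb, and the run from Nfkbid to Nfkbib overlapped between neighbours. In control libraries the order was Tnfaip3 (906 ± 447), Nfkbia (569 ± 147), Nfkb1 (218 ± 15.5), Nfkbiz (119.9 ± 35.8), Rela (106 ± 9.29), Nfkb2 (94.1 ± 8.75), Nfkbid (82.9 ± 26.4), Relb (58.0 ± 6.90), Nfkbib (53.05 ± 3.09) and Rel (32.2 ± 3.58). There Tnfaip3 overlapped with Nfkbia, and each gene from Nfkbiz to Nfkbib overlapped with the next. Tnfaip3 thus held rank 3 in myeloma and rank 1 in controls, and Nfkbiz rank 8 in myeloma and rank 4 in controls, while Rel was last in both.

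Of the inhibitors, Tnfaip3 differed most. Its product is a ubiquitin-editing enzyme that shuts off signalling upstream of the IkB kinase. Tnfaip3 (ENSMUSG00000019850.11, 10:19000910-19015657) was at 438, 474 and 645.5 CPM in myeloma replicates 3, 4 and 5, against 2743, 3463 and 992 CPM in control replicates 1, 3 and 5. Each myeloma library lay below each control, but control replicate 5 was nearer to the myeloma libraries than to the other controls. The log2 fold change was -2.21 (SE 0.39, adjusted p = 0.00997). It ran from -2.59 without control replicate 5 to -1.85 without control replicate 3. The call was lost without myeloma replicate 4 (adjusted p = 0.0575), with robust dispersion estimates (0.0718) and with the replicate number as a block (0.128).

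Nfkbiz encodes an atypical nuclear IkB protein that acts on selected NF-kB targets. The gene (16:55811375-55838899) was at 149, 152 and 167 CPM in myeloma libraries and at 269, 367.5 and 176 CPM in controls. The groups did not overlap, although myeloma replicate 5 and control replicate 5 were close. The log2 fold change of -0.80 (SE 0.22) had an adjusted p of 0.0485 in edgeR's test, just inside the threshold. Dropping a library ended the call for all but control library 5: the adjusted p was 0.123, 0.146 and 0.0638 when myeloma library 3, 4 or 5 was dropped, 0.0851 for control library 1 and 0.136 for control library 3, where the log2 fold change was -0.52. It was also lost with limma-voom (0.0602), robust dispersion (0.123), an effective-length offset (0.0647) and the replicate number as a block (0.216). That block fit is limited as described for Nfkb2.

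Nfkbia encodes IkB alpha, the main cytoplasmic inhibitor and a rapid feedback target, and its window above holds the consensus as well. The gene (12:55489410-55492647) was at 559, 523 and 412 CPM in myeloma libraries and at 507, 684 and 359 CPM in controls. The groups overlapped broadly (log2 fold change -0.052, SE 0.21, adjusted p = 0.903). The sign turned when control library 3 (0.20) or myeloma library 5 (0.061) was dropped. Nfkbid (7:30421732-30428746), which encodes another nuclear IkB protein that in mice takes part in Foxp3 induction, was at 96.0, 79.3 and 88.1 CPM in myeloma libraries and at 88.1, 122 and 60.3 CPM in controls. These groups overlapped too (log2 fold change -0.033, SE 0.21, adjusted p = 0.941). Here the sign turned when control library 3 (0.24) or myeloma library 4 (0.034) was dropped, with limma-voom (0.033) and with the replicate number as a block (0.098).

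Nfkbib encodes IkB beta, a cytoplasmic inhibitor. The gene (7:28758251-28767512) was at 47.4, 49.2 and 49.7 CPM in myeloma libraries, above all controls at 36.4, 42.7 and 38.0 CPM. The log2 fold change of 0.32 (SE 0.10) was not called (adjusted p = 0.0665), and it missed the threshold in all 18 other settings. Its exons overlap those of Sirt2 on the opposite strand by 42 bases and those of Ccer2 by 314 bases. Sirt2 was at 67.5 to 85.5 CPM and Ccer2 at 0.536 CPM or less.

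**Figure D3:**
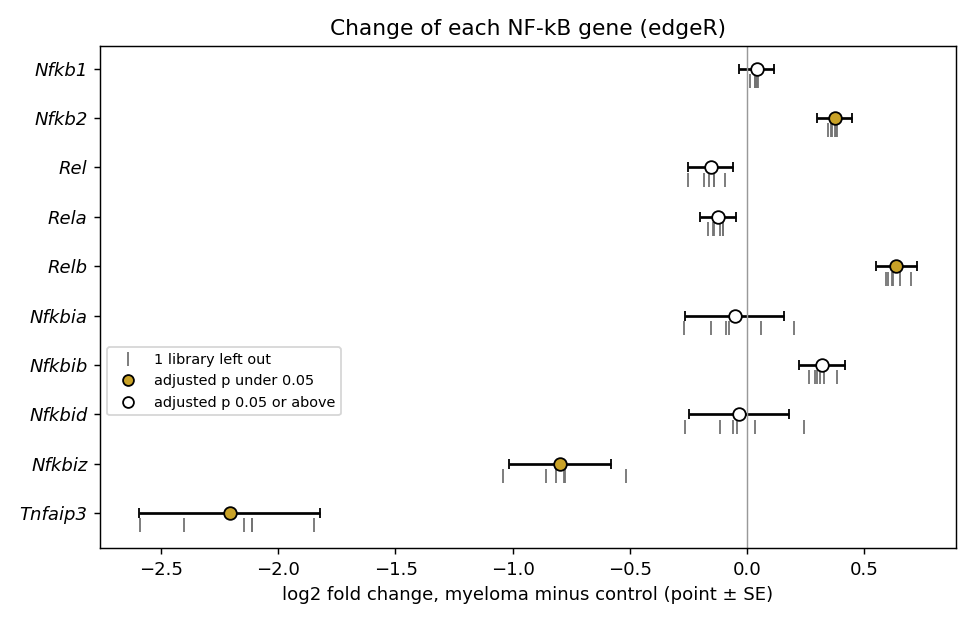
log2 fold change (myeloma minus control) of each NF-kB gene from edgeR's test, with its SE as a bar, filled where the adjusted p was under 0.05, and grey ticks for the value with each of the 6 libraries left out. The ticks lie closer to the point for the 5 subunit genes than for Nfkbia, Nfkbid, Nfkbiz and Tnfaip3, and they cross 0 for Nfkbia and Nfkbid.

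Tnfaip3, Nfkbiz, Nfkbid and Nfkbia, but not Nfkbib, varied more between control libraries than any subunit gene. The coefficient of variation of CPM over the 3 controls ran from 2.33% to 11.1% for the subunit genes, and from 8.31% for Nfkbib to 53.0% for Tnfaip3 among the inhibitors. Over the 3 myeloma libraries it ran from 0.546% to 3.87% for the subunit genes and from 2.52% to 21.3% for the inhibitors. In 4 of the 5 inhibitor genes, Tnfaip3, Nfkbiz, Nfkbia and Nfkbid, control replicate 3 was highest and control replicate 5 lowest, an order that 0 of the 5 subunit genes and 16.0% of all tested genes showed. That order was read from these 4 inhibitor genes, so their own count does not test it. The 4 genes were measured in the same 3 libraries, so they are not independent observations of that order.

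Of 20 immediate early genes, which cells switch on within minutes of stimulation or handling, 19 were tested. Of these 10 fell, 9 did not pass and none rose, against 4.69% of all tested genes called lower. The list was chosen with earlier results of these data known, so this share is no independent test. The median log2 fold change was -1.08. Their summed level was 3131, 2840.4 and 4055 CPM in myeloma replicates 3, 4 and 5, against 5438, 8977 and 5488 CPM in control replicates 1, 3 and 5. Control replicate 3 was again the highest, and 9 of the 19 genes had the control order seen in the inhibitor genes. Ppp1r15a, a stress-induced phosphatase subunit, was 5.06-fold lower at 108 ± 46.8 CPM in myeloma and 547 ± 233 CPM in controls (SD, n = 3 each). Fos, an AP-1 subunit, was at 62.1 ± 35.3 CPM in myeloma and 285 ± 113 CPM in controls. Btg2, an antiproliferative factor, was at 253 ± 6.90 CPM in myeloma and 571 ± 152 CPM in controls, and Zfp36, a protein that destabilises messenger RNAs, at 323 ± 34.7 CPM in myeloma and 703 ± 198 CPM in controls. Adjusted p from edgeR's test was 0.00529 for Ppp1r15a, 0.011 for Fos, 0.00414 for Btg2 and 0.00746 for Zfp36. The number of immediate early genes called lower was 3 when myeloma library 3 was dropped, 4 for myeloma library 4, 6 for control library 3, and 4 with robust dispersion, and 2 were called higher with no filter. The part of this difference in the lower Tnfaip3 and Nfkbiz levels was not tested.

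**Figure D4:**
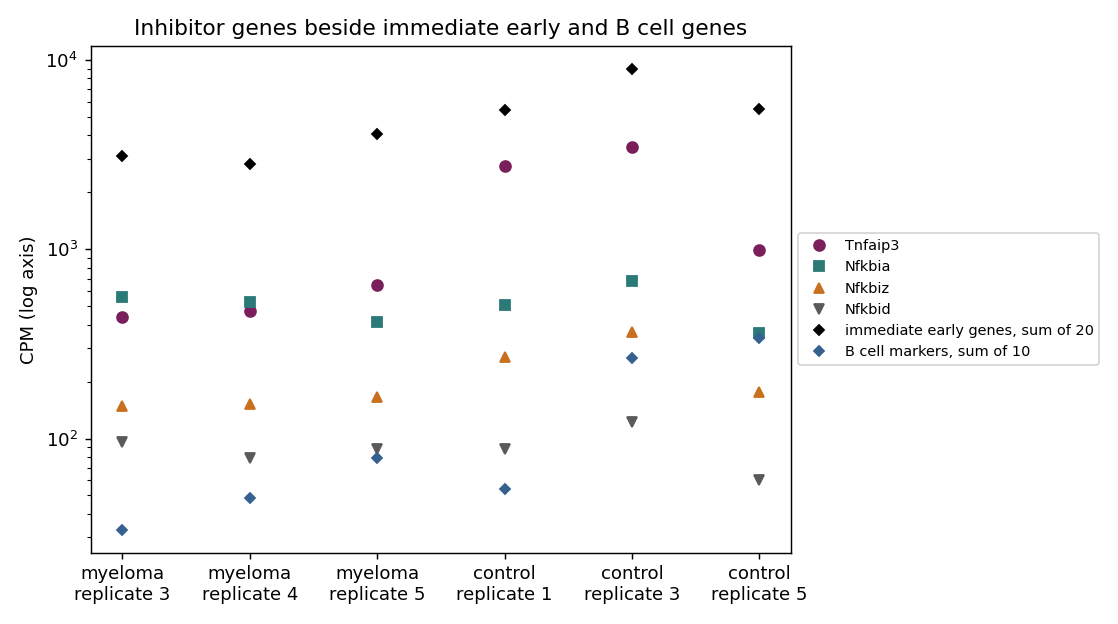
CPM on a log axis in each of the 6 libraries for Tnfaip3, Nfkbia, Nfkbiz and Nfkbid, with the summed CPM of 20 immediate early genes and of 10 B cell markers. The 4 inhibitor genes and the immediate early sum are highest in control replicate 3, whereas the B cell sum is highest in control replicate 5.

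RNA of other cell types also differed between the libraries, and in bulk samples fewer cells of a type and less RNA per cell cannot be told apart. The 10 B cell markers summed to 33.01, 48.7 and 78.4 CPM in myeloma libraries and to 54.3, 265 and 339 CPM in controls, with 6 of 10 called lower and none at 0 throughout. Control replicate 1, whose B cell sum lay within the myeloma range, had 2743 CPM of Tnfaip3 and 269 CPM of Nfkbiz. Control replicate 5, with the highest B cell sum, had the lowest Tnfaip3 level among controls. The 8 plasma cell markers summed to 306, 419 and 582 CPM in myeloma and to between 180.3 and 237.5 CPM in controls (2 of 7 tested called higher), and the 10 myeloid markers to 60.4, 136 and 431 CPM in myeloma and to between 46.4 and 107 CPM in controls (2 of 9 tested called higher). The plasma cell sum hides unlike genes, none of them called lower. In control replicate 1 Prdm1, Xbp1 and Txndc5 were at 90.8, 72.1 and 68.0 of 237.5 CPM. Jchain was at 37.7, 118 and 199 CPM in myeloma replicates 3, 4 and 5 and at no more than 3.70 CPM in any control (adjusted p = 0.00239, edgeR's test). Relb was at 123.1 CPM in myeloma replicate 3, whose myeloid sum lay within the control range but whose plasma cell sum and Jchain level lay above every control. It was at 123.4 CPM in myeloma replicate 5, where the plasma cell and myeloid sums were both highest. The 8 neutrophil markers summed to between 139 and 470.4 CPM in myeloma and between 64.0 and 185 CPM in controls, the 8 NK cell markers to between 4.15 and 38.9 CPM in myeloma and between 6.61 and 8.58 CPM in controls, and the pair of CD8 genes to between 13.5 and 22.4 CPM in myeloma and between 11.002 and 13.8 CPM in controls, with no gene of these 3 lists called. Only 2 of the 8 NK cell markers had enough counts to be tested, and Tyrobp, which myeloid cells also express, made up 34.0 CPM of the highest sum. The 8 red cell markers summed to between 3864 and 4796 CPM in myeloma and between 6746 and 14774 CPM in controls, with 5 of 8 called lower. The part of these markers in the NF-kB gene differences was not tested.

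Receptors that feed the pathway had 4 of 13 tested genes higher and none lower, against 6.33% of all tested genes called higher. This list and those below were chosen with earlier results of these data known, so their shares are no independent test. The median log2 fold change was 0.22, and 3 of the 16 genes on the list had too few counts to be tested. Those that rose were 4 members of the tumour necrosis factor receptor superfamily that give costimulatory signals to T cells. Tnfrsf4 (OX40) was at 465 ± 12.6 CPM in myeloma and 236 ± 53.9 CPM in controls (SD, n = 3 each), and Tnfrsf18 (GITR) at 505 ± 48.2 CPM in myeloma and 312 ± 37.6 CPM in controls. Tnfrsf9 (4-1BB) was at 225, 247 and 219 CPM in myeloma libraries and at 161, 82.5 and 56.6 CPM in controls. Tnfrsf1b, the receptor TNFR2, was at 598, 575 and 684 CPM in myeloma libraries and at 470.1, 312 and 232 CPM in controls. For both of these, control replicate 1 was the nearest to the myeloma libraries. Adjusted p-values from edgeR's test were 0.00532 for Tnfrsf4, 0.00776 for Tnfrsf18, 0.0388 for Tnfrsf9 and 0.0361 for Tnfrsf1b. The count was 2 when any library other than control library 1 was dropped, Tnfrsf9 and Tnfrsf1b being lost each time, and on the log2(TPM + 1) scale 1 receptor was higher and 1 lower.

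Kinases and adaptors of the pathway had 3 of 32 genes higher and 2 lower, shares of 9.38% and 6.25% that lie near the background of 6.33% and 4.69%. The median log2 fold change was -0.050. Tank, an adaptor of the kinase TBK1, was 1.42-fold higher (adjusted p = 0.0176) and Myd88, the adaptor of Toll-like and interleukin-1 receptors, 1.37-fold higher (0.0253). Ube2n, a ubiquitin-conjugating enzyme picked after seeing its value, was at 88.2 CPM in myeloma and 68.8 CPM in controls (0.0377). Prkcq, the kinase that links the T cell receptor to NF-kB, was at 237 ± 5.22 CPM in myeloma and 336 ± 18.7 CPM in controls (adjusted p = 0.00672), and the ubiquitin ligase gene Traf6 at 69.9 ± 1.15 CPM in myeloma and 91.2 ± 5.45 CPM in controls (0.0205). Map3k14, which encodes NIK, the kinase upstream of Nfkb2 processing, was at 61.0 ± 3.71 CPM in myeloma and 72.2 ± 6.02 CPM in controls, was not called (adjusted p = 0.13), and was likewise picked with its value known. By edgeR's test 0 genes were called higher when myeloma library 3 or control library 3 or 5 was dropped, and 1 for each of the other libraries. The count of lower genes was 1 when myeloma library 3 or 4 or control library 3 or 5 was dropped. On the log2(TPM + 1) scale 0 genes were higher and 6 lower, and with the effective-length offset 1 was higher. Adjusted p-values of single genes here are from edgeR's quasi-likelihood test.

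Among 20 further inhibitors and deubiquitinases, 3 were higher and 1 lower, or 15% and 5%, where 6.33% and 4.69% of all tested genes were, so the lower count lies near the background. The median log2 fold change was 0.17. Bcl3, a nuclear IkB-family protein that binds the p50 and p52 subunits, was at 105, 106 and 119 CPM in myeloma libraries and at 53.8, 39.9 and 56.5 CPM in controls. No library overlapped, and every myeloma value was far above the controls. The log2 fold change was 1.13 (SE 0.13, adjusted p = 0.00163), and Bcl3 passed in all 18 other settings. Nfkbie, the gene of the cytoplasmic inhibitor IkB epsilon, was at 71.1, 72.0 and 83.2 CPM in myeloma libraries and at 62.3, 66.0 and 59.7 CPM in controls. Its log2 fold change of 0.27 (SE 0.09) was not called (adjusted p = 0.0991). The ubiquitin ligase gene Itch was at 94.0 ± 1.94 CPM in myeloma and 128 ± 7.57 CPM in controls (adjusted p = 0.0109). N4bp1, an inhibitor of the IkB kinase cascade, was at 170.1 ± 25.05 CPM in myeloma and 95.0 ± 29.9 CPM in controls (0.0307), and Nfkbil1 at 24.7 ± 3.13 CPM in myeloma and 16.2 ± 0.245 CPM in controls (0.0285). The count of higher genes was 1 when myeloma library 3 or control library 3 or 5 was dropped. It was 2 for each of the other libraries. On the log2(TPM + 1) scale 1 gene was higher and 2 were lower, and 2 were lower with no filter.

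Of 40 textbook NF-kB targets 33 were tested, and 10 were higher and 2 lower, or 30.3% and 6.06% against backgrounds of 6.33% and 4.69%. The target list too was chosen with earlier results of these data known, so these shares are no independent test of the pathway. The median log2 fold change was 0.33. Cd86, a costimulatory ligand, was at 45.3, 39.9 and 50.8 CPM in myeloma libraries and at 14.7, 12.5 and 11.1 CPM in controls. Its log2 fold change was 1.83 (SE 0.15, adjusted p = 0.000198). Ebi3, a chain shared by interleukins 27 and 35, was at 31.6 ± 0.639 CPM in myeloma and 13.4 ± 4.22 CPM in controls (adjusted p = 0.00847), and the adhesion molecule gene Icam1 at 177 ± 14.8 CPM in myeloma and 116 ± 13.9 CPM in controls (0.0104). The chemokine gene Ccl4 was at 6.60, 4.27 and 13.3 CPM in myeloma libraries and at no more than 1.01 CPM in any control (adjusted p = 0.00847). Those that fell were Bcl2, a survival factor, at 108 CPM in myeloma and 192 CPM in controls, and Ccr7, a homing receptor, at 63.7 CPM in myeloma and 92.6 CPM in controls, both picked with their values known. Cd86 and Ccl4 are also expressed by myeloid cells, whose markers are given above. The number of targets called higher was 3 when myeloma library 4 was dropped, 5 for control library 3, 5 on the log2(TPM + 1) scale and 18 with no filter on low counts. The number called lower was 0 when myeloma library 3 or control library 3 or 5 was dropped, and 1 for myeloma library 5. Many of these genes are targets of other pathways too.

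**Figure D5:**
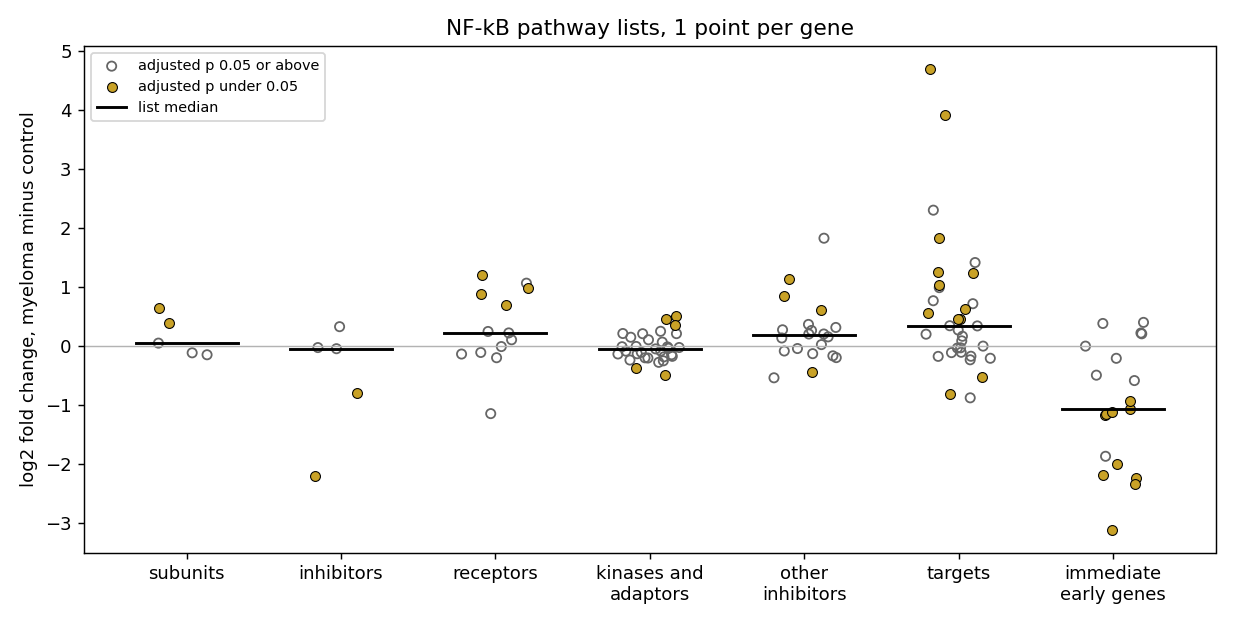
log2 fold change (myeloma minus control) of every tested gene in the subunit, inhibitor, receptor, kinase and adaptor, further inhibitor, target and immediate early lists, with 1 point per gene, filled where the adjusted p was under 0.05, and the list median as a line. The medians lie at 0.33 for targets and at -1.08 for immediate early genes, and close to 0 for kinases and adaptors.

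Genes whose log2 CPM followed the 4 called genes most closely over the 6 libraries were ranked by Pearson's r among 9510 genes. These averaged 5 CPM or more, and NF-kB members, pseudogenes, predicted models and antigen receptor genes were left out. Among the called members Nfkb2 and Relb correlated at 0.975 and Nfkbiz and Tnfaip3 at 0.969, and the other pairs at -0.890 to -0.752. For Relb the closest genes were the interferon-induced Oas1a (r = 0.999), Ly6a, the surface antigen Sca-1 (0.997), and the proteasome subunit gene Psma4 (0.997). For Nfkb2 they were Rps27l (0.998), Ptprcap, which encodes a protein associated with CD45 (0.997), and Znhit1 (0.996). For Nfkbiz they were Csrnp1 (0.995), Spty2d1 (0.995) and Pnrc1 (0.994), and for Tnfaip3 they were Ncl, which encodes nucleolin (0.998), Vasn (0.992) and the phosphatase gene Dusp1 (0.988). All points are libraries of 2 groups that differ, so such values describe a shared pattern of 6 numbers and not its size. The called members were picked because their groups differ, so the signs of the correlations among them follow from the calls. The highest r among 9510 genes was also near 1 for members that were not called, at 0.988 for Nfkb1 and 0.992 for Rela. Dusp1 was at 384, 369.9 and 452 CPM in myeloma libraries and at 874, 1208 and 601 CPM in controls, and Oas1a at 195, 166 and 204 CPM in myeloma libraries and at 51.7, 28.3 and 29.7 CPM in controls. Ncl differed far less, at 459, 462 and 468 CPM in myeloma libraries and 528, 536 and 486 CPM in controls. Ncl (adjusted p = 0.244), Vasn (0.101) and Znhit1 (0.128) were not called by edgeR's test, while the other genes named here were.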

How the data were processed

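RNA was extracted from sorted cells with the RNeasy Micro kit and made into libraries with a NEBNext Ultra kit, per the labels' protocols. The submitters' processing notes name STAR, RSEM, Picard, DESeq2 and build mm10, with versions not given in the sources used here. The authors' deposited expected counts are RSEM's estimated reads per gene and were not normalized. The deposited TPM and FPKM are scaled for depth and length, per the file headers, and FPKM was not used. Effective length, deposited in bases, served in 1 alternative.

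Of 47643 gene IDs 47224 matched the reference names, and coordinates are from GENCODE (GRCm38, which mm10 denotes). Expected counts were rounded, filtered by filterByExpr (minimum count 10, total 15), TMM-scaled and tested in edgeR 4.0.16 under R 4.3.3 by its quasi-likelihood functions glmQLFit and glmQLFTest, with Benjamini-Hochberg adjustment over 13235 genes. CPM use TMM-scaled library sizes. The SE is the absolute log2 fold change divided by the square root of F. The procedure was tested on simulated data. It recovered 33.8% of 1.5-fold, 65.2% of 2-fold and 81.5% of 4-fold changes, with 9 false calls among unchanged genes. These shares are over all changed genes of that run, and recovery at the counts and spread of the 10 members was not tested. A gene that was not called may thus still differ, and its SE shows how closely its log2 fold change was measured. Among the uncalled members the SE was 0.074 for Nfkb1, 0.08 for Rela, and 0.10 for Rel and Nfkbib. It was 0.21 for Nfkbia and Nfkbid. The labels tie no library to a day or litter, so the p-values reflect spread among these 6 libraries, part of which may be technical. Limma 3.58.1 and DESeq2 1.42.0 served in alternatives. Others were RLE, upper-quartile or no scaling factors, no filter or 1 CPM in 3 libraries, robust dispersion, an effective-length offset, leaving immunoglobulin, haemoglobin and mitochondrial transcripts out before scaling, a block on the replicate number, and dropping each library in turn.

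The members and gene lists were chosen with earlier results of these data known. Genes named are the 10 members, Bcl3 and Nfkbie, up to 4 called genes with the smallest p per list and the 3 genes most correlated with each called member. Genes picked otherwise are marked so, and cell markers and overlapping genes are named as such. The NF-kB consensus was searched as its degenerate form of 10 bases.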

Additional observations from a re-analysis of the deposited data

How the results depend on the processing

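Over 18 alternatives Relb kept its call in 17, Tnfaip3 in 15, Nfkb2 in 13 and Nfkbiz in 9, and none of these 4 changed sign. The count of NF-kB genes called higher was 0 with limma on log2(TPM + 1), 1 with the replicate number as a block and between 1 and 2 with 1 library left out. The count called lower was 1 with limma-voom or the effective-length offset, 0 with robust dispersion or the block, and between 0 and 2 with 1 library left out. Over all genes, 1337 were higher and 1102 lower with no filter, 275 and 1018 on the log2(TPM + 1) scale, 362 and 142 with the block, and between 331 and 836 higher and 123 and 546 lower with 1 library left out, where fewer samples enter. With library sizes alone 633 were higher and 1004 lower, against 838 and 621 with TMM. Lower genes numbered 970 with DESeq2 and 405 with the effective-length offset. The sign of Nfkb1 turned with library sizes alone (-0.031) and on the log2(TPM + 1) scale (-0.12). That of Nfkbia turned without myeloma replicate 5 (0.061) or control replicate 3 (0.20), with a range of -0.27 to 0.20 over the libraries left out. That of Nfkbid turned with limma-voom (0.033), the block (0.098), and without myeloma replicate 4 (0.034) or control replicate 3 (0.24), with a range of -0.27 to 0.24. None of these 3 was called in any setting. For these reversals the cause was not tested. Only the numbers 3 and 5 occur in both groups, so myeloma library 4 and control library 1 do not inform the difference in the block fit. Deviations from the group mean correlated at 0.030 and 0.097 within the pairs of number 3 and of number 5. For pairs of unlike number the correlation ran from -0.081 to 0.048. Such values cannot show whether libraries of the same number share a day or litter, and the labels do not say. With the block Relb was called (adjusted p = 0.0237), and Nfkb2 (0.116), Nfkbiz (0.216) and Tnfaip3 (0.128) were not. The block also left 0 kinases and adaptors higher and 0 lower, 0 further inhibitors lower, 6 targets higher and 5 immediate early genes lower. With 3 libraries a group, an exact permutation test cannot give p under 0.1.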
